A study of Mus musculus with 20 samples.

Results

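Hair keratins, the proteins that build the hair shaft and the sheath around it, differed widely between skin libraries of 1 experiment, and the libraries low and high in them are described here. The rule took the 7 sham and FLASH skin libraries out of 20 libraries in all and ranked them by the mean log2 CPM (counts scaled to library size) of 7 keratin genes. The low class held 3 libraries (sham 1, FLASH 1 and FLASH 2), and the high class held 4 (sham 2, sham 3, FLASH 3 and FLASH 4). Measured values therefore chose the classes, so differences between them are given as a description with no test. Of the 7 genes, Krt25, Krt27 and Krt71 are keratins of the inner root sheath, which moulds the shaft, and Krt31, Krt34, Krt35 and Krt86 belong to the shaft itself. The classes are called low and high in hair keratins for that reason, although the usual name of such genes is hair-shaft genes.

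The mice were wild-type C57BL/6J. Tissue came from the left hindlimb 70 days after 35 Gy of electrons delivered by a linear accelerator at ultra-high dose rate (FLASH, 4 skin libraries) or conventional dose rate (CONV, 3 skin libraries), or after sham treatment without irradiation (3 skin libraries). All skin libraries carried batch 1, and no age or sex was stated. The labels number the replicates without saying that each is a separate animal, so the spread between libraries may be partly technical. Files of sham 3 and FLASH 1 carried library names that the labels give to a FLASH and a sham record, respectively, and groups here follow the records. By library name the low class would hold 2 sham and 1 FLASH library and the high class 1 sham and 3 FLASH libraries.

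The hair follicle is rebuilt in cycles of growth (anagen), regression (catagen) and rest (telogen). During growth, matrix cells at the base divide and differentiate into shaft and sheath under signals from the dermal papilla, with Wnt, Sonic hedgehog (Shh), BMP and FGF ligands as the best known. Pigment synthesis by follicular melanocytes is tied to the growth phase, whereas stem cells of the bulge persist through rest.

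The 7 keratins spanned the whole range from near absence to high abundance. Krt71 measured 0.225, 0.0659 and 158 CPM in sham 1, FLASH 1 and FLASH 2, against 2198 CPM in sham 2, 333 in sham 3, 2704 in FLASH 3 and 2527 in FLASH 4. Krt34 was at 0 in sham 1 and FLASH 1 and at 0.787 CPM in FLASH 2, against 253, 6.35, 443 and 201 CPM in sham 2, sham 3, FLASH 3 and FLASH 4. Summed over these 7 genes and the other hair keratins, the authors' TPM (a length-corrected level) was 62.5, 83.9 and 435 in the low libraries and 10402, 1263, 14112 and 8417 in the high ones, in the same order. In a bulk sample, fewer follicle cells and less RNA per cell cannot be told apart.

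These libraries formed 3 levels rather than 2. The mean log2 CPM of the 7 genes was -2.20 in sham 1 and -2.06 in FLASH 1. It was 3.53 in FLASH 2 and 5.38 in sham 3, the members just inside and just outside the low class, and 8.76 to 9.58 in FLASH 4, sham 2 and FLASH 3. The step at the class border was 1.85, smaller than the step of 5.59 between FLASH 1 and FLASH 2 and that of 3.38 between sham 3 and FLASH 4. The lowest and the middle level each held 1 sham and 1 FLASH library, and the top level held 1 sham and 2 FLASH libraries. This follows the records. By the library names of the sham 3 and FLASH 1 files, the lowest level would hold only sham and the middle level only FLASH libraries.

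**Figure D1:**
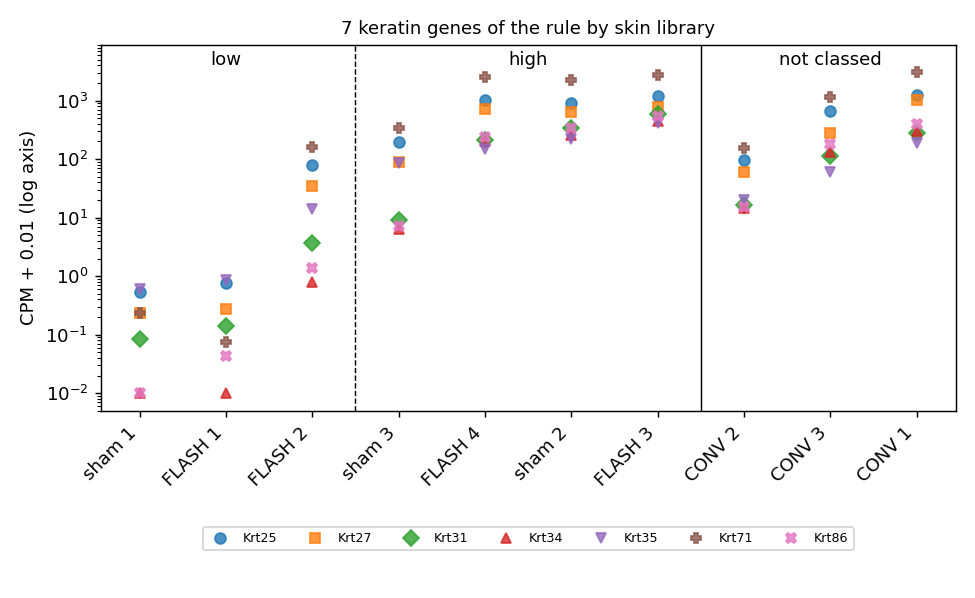
CPM plus 0.01 of the 7 keratin genes of the rule on a log axis, with 1 column per skin library in order of the mean log2 CPM within each block and 1 symbol per gene. The dashed line separates the 3 low from the 4 high libraries and the solid line sets off the CONV libraries, which have no class; sham 1 and FLASH 1 lie below 1 CPM for every gene, and FLASH 2 and sham 3 lie between them and the other high libraries.

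Sheath keratins ran ahead of shaft keratins in the 2 border libraries. FLASH 2 had a mean log2 CPM of 6.23 for the 3 sheath genes and 1.51 for the 4 shaft genes, a difference of 4.72. In sham 3 the difference was 3.71, while in the other 5 classed libraries it was 0.82 to 2.65. Of these 5, sham 1 and FLASH 1 lay below 1 CPM for every keratin of the rule, where such a difference is poorly measured. CONV 2, close to sham 3 in the mean of all 7 keratins, had a difference of 2.55. Ranking the libraries by the sheath genes alone or by the shaft genes alone gave the same classes.

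**Figure D2:**
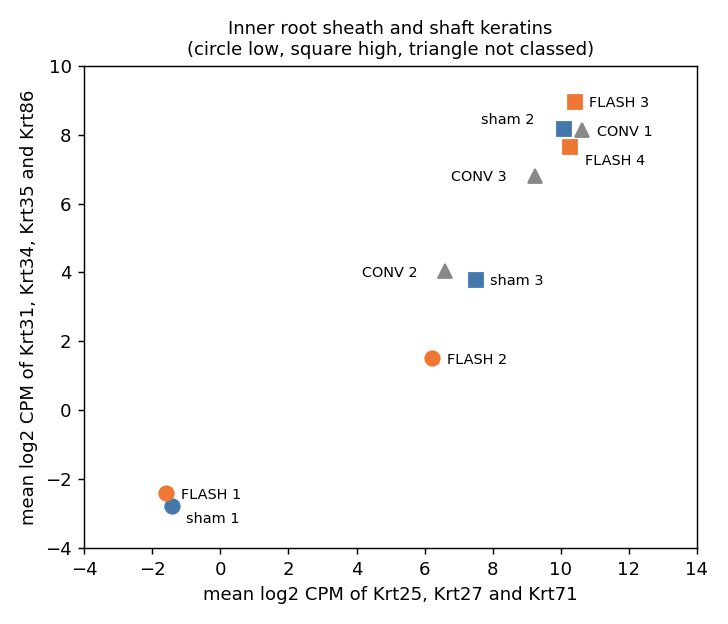
Mean log2 CPM of 3 inner root sheath keratins (horizontal) against that of 4 shaft keratins (vertical), 1 point per skin library, blue for sham, orange for FLASH and grey for CONV. FLASH 2 lies at 6.23 and 1.51, next to CONV 2 and sham 3 and apart from sham 1 and FLASH 1.

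A gene is called separated here when every library of 1 class lay above every library of the other and the nearest libraries of the 2 classes differed at least 2-fold (a gap of 1 on the log2 scale). Of 20026 genes tested, 250 (1.25%) were separated and higher in the high class, and 24 (0.12%) were separated and lower. Without any minimum gap, 3020 genes (15.1%) were higher with no overlap and 2743 (13.7%) were lower. The lists described below held 411 genes, of which 407 passed the filter on low counts and Krt85, Fgf20, Asip and Ly6g did not. Of those 407, 59 were separated and higher and 2 were separated and lower. Because genes with counts in few libraries can pass only through the libraries where they are high, these counts describe the libraries and support nothing further.

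The 250 genes depended on single libraries at the class border. Without sham 3 the counts were 509 higher and 45 lower, and without FLASH 2 they were 436 and 67, since fewer libraries then had to clear the gap. Leaving out FLASH 1 gave 577 lower genes, leaving out sham 2 gave 45, and leaving out FLASH 4 gave 42. Without FLASH 1 the low class was only sham 1 and FLASH 2, the libraries richest in skeletal muscle RNA (given below). The part of muscle RNA in the 577 was not tested. Within the 250, FLASH 2 was the highest of the low libraries for 199 genes and sham 3 the lowest of the high libraries for 201.

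Hair keratins outside the rule and the proteins they are packed with were also mostly higher in the high class. All 17 tested members of the list of other hair keratins were higher in every high library, against 15.1% of all genes. Separated were 14 of them, against 1.25% of all genes. The median class difference was 8.32 on the log2 scale against -0.07 over all genes (class medians are compared throughout). Krt28, a sheath keratin, measured 0.526, 0.659 and 17.1 CPM in the low libraries and 254, 69.1, 320 and 213 CPM in the high ones. Krt75, which is part of the summed TPM above, was well present in the low class and not separated. It measured 88.2, 99.4 and 117 CPM against 338, 130, 356 and 283 CPM, a gap of 0.15 on the log2 scale. FLASH 2 was the highest low library for 12 of the 14 separated members. Among keratin-associated proteins (Krtap), the matrix in which shaft keratins are embedded, 45 of 57 tested genes were separated, against 1.25% of all genes. The summed level of the 57 was 6.98, 6.99 and 19.8 CPM against 3824, 108, 6189 and 2793 CPM. Copies of Krtap genes are near-identical, so the division of reads between them is uncertain.

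Non-keratin proteins of the shaft and sheath came next, with 10 of 19 separated and 14 without overlap, all higher, at a median of 5.23. For all genes the shares separated and higher, and higher without overlap, were 1.25% and 15.1%. Tchh (chromosome 3, 93442330 to 93449077, plus strand, GRCm38) encodes trichohyalin, which hardens the inner root sheath and medulla. It measured 3.38, 4.65 and 47.8 CPM in sham 1, FLASH 1 and FLASH 2. The high libraries held 1636 CPM in sham 2, 189 in sham 3, 2330 in FLASH 3 and 1818 in FLASH 4, so the nearest libraries of the classes differed 3.95-fold. Padi1, which converts arginine to citrulline in such proteins, was at 0, 0.0989 and 2.02 CPM against 51.3, 6.42, 62.4 and 54.4 CPM. S100a3, a calcium-binding protein of the hair cuticle, was at 3.04, 3.07 and 11 CPM against 219, 32.5, 496 and 171 CPM. In all 10 separated members FLASH 2 was the highest low library and sham 3 the lowest high one. Cdsn, which encodes corneodesmosin of the cornified layer, was not separated, at 236 to 299 CPM against 319 to 449 CPM.

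Stretches upstream of Krt34 and Tchh are shown because the genes carry the keratin result and each holds more than 1 copy of CTTTGA, the core that TCF/LEF factors such as LEF1 are known to bind, in either orientation (TCAAAG on the other strand). Capitals mark the copies. They lie at chr11:100041665-100041804 on the minus strand and chr3:93442152-93442211 on the plus strand of GRCm38.p6 (RefSeq), written 5′ to 3′ along each gene.
Krt34: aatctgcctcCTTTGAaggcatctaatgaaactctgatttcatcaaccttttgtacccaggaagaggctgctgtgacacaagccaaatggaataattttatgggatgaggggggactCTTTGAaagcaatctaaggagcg
Tchh: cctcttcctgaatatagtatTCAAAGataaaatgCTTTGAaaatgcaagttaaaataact
The copies begin 240 and 133 bases before the annotated start of Krt34, and 158 and 144 bases before that of Tchh. Of the 31 separated hair keratin and structural genes, 23 were matched to the RefSeq table and 7 of these (30.4%) held the letters within the 250 bases before the start, against 15.8% of all 27025 genes of the table. A match is a description of letters, not of binding.

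Transcription factors of the follicle matrix were mostly higher in the high class. Of 24 factors, 20 lay without overlap and higher and 7 of these were separated, with a median difference of 1.27. For all genes these shares were 15.1% and 1.25%. Lef1 (chromosome 3, 131110471 to 131224356, plus strand), the nuclear partner of beta-catenin in the matrix and precortex, measured 17.0, 16.2 and 35.9 CPM in sham 1, FLASH 1 and FLASH 2. It measured 207, 108, 272 and 117 CPM in sham 2, sham 3, FLASH 3 and FLASH 4, and the nearest libraries differed 3.01-fold. Dlx3, a homeobox factor needed for shaft and sheath differentiation, stood at 18.8, 25.4 and 41.8 CPM against 260, 139, 338 and 190 CPM. Its relatives Dlx2 (0.526, 0.527 and 2.55 CPM against 13, 8.43, 19.6 and 11.1 CPM) and Dlx4 (0.526, 1.02 and 2.62 CPM against 14, 10.7, 20.2 and 9.20 CPM) had the same order of classes.

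Msx2, which acts in matrix and shaft differentiation, was at 4.05, 5.04 and 9.22 CPM against 66.0, 26.6, 88.9 and 42.2 CPM. Foxe1, a forkhead factor of the follicle, was at 0.0375, 0.165 and 1.61 CPM against 8.22, 5.59, 16.3 and 9.72 CPM. Hoxc13, which activates shaft keratin genes, measured 7.06, 8.67 and 18.1 CPM against 100.2, 44.3, 134 and 67.6 CPM. Foxn1, the gene mutated in nude mice, did not reach the 2-fold gap, at 9.61, 15.8 and 17.2 CPM against 72.6, 24.7, 103 and 59.2 CPM. Hoxc13 and Foxn1 were chosen after their values were seen. Of the 4 factors that overlapped, Gata3 ranged over 538 to 712 CPM in the low and 389 to 708 CPM in the high libraries. The corepressor Hr ranged over 331 to 530 and 504 to 650 CPM.

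**Figure D3:**
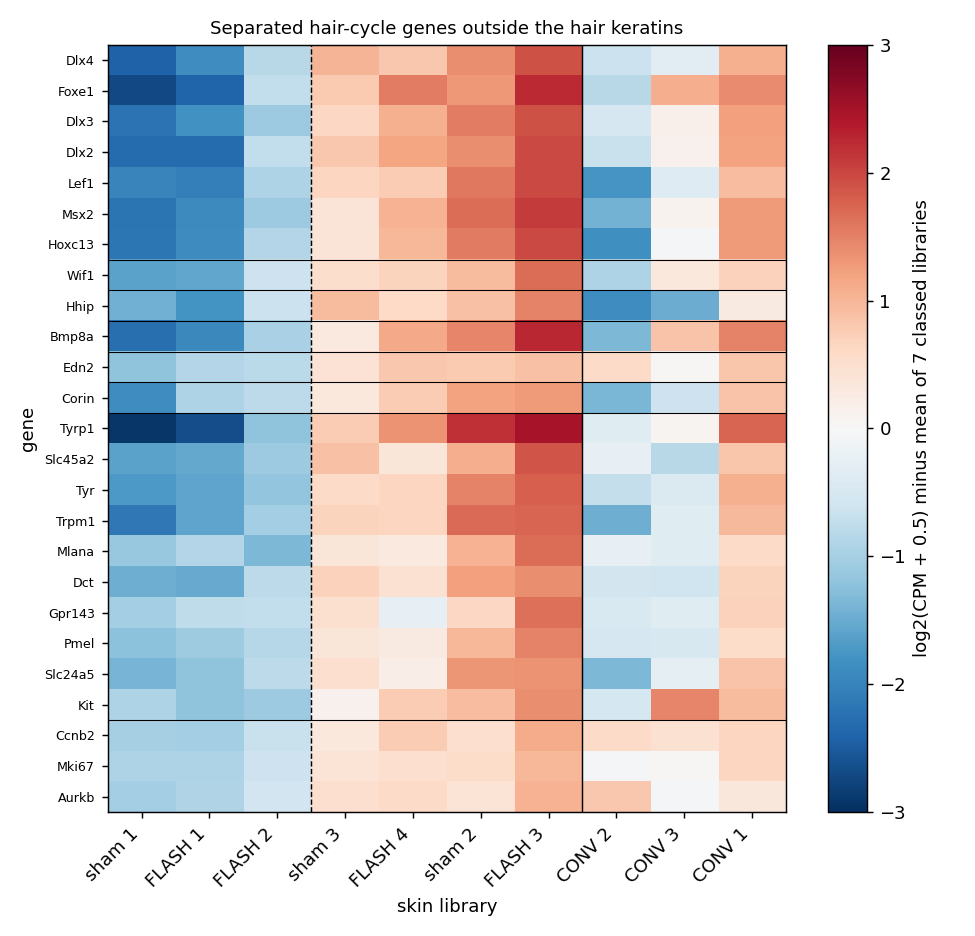
Reported separated genes outside the hair keratins from the lists of transcription factors, Wnt, Sonic hedgehog, BMP and FGF and EGF signals, dermal papilla, pigment and cell division (top to bottom, thin lines between lists). Colour is log2(CPM + 0.5) minus the gene's mean over the 7 classed libraries; the dashed line is the class border, the solid line sets off CONV, and the Hhip row is at least as red in sham 3 as in sham 2.

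Sonic hedgehog genes were higher in the high class but did not follow the order of the keratins within it. Shh secreted by matrix cells drives growth, and its receptor gene Ptch1, its antagonist Hhip and its effector Gli1 are also its targets. Of 13 pathway genes, 9 were higher with no overlap and none was lower, against 15.1% and 13.7% of all genes. The list median was 0.66. Hhip, which was separated, was at 4.05, 3.07 and 7.38 CPM in sham 1, FLASH 1 and FLASH 2 against 22.4, 23.3, 34.5 and 18.2 CPM in sham 2, sham 3, FLASH 3 and FLASH 4. Sham 3, the lowest high library for every separated keratin and structural gene, was not the lowest for Hhip.

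Other members of the pathway followed with smaller gaps. Ptch1 measured 86.3, 90.0 and 121 CPM against 197, 270, 248 and 153 CPM, with sham 3 the highest of all 7. Shh itself stood at 2.33, 2.18 and 5.32 CPM against 13.6, 17.6, 22.2 and 10.2 CPM, and Gli1 at 13.3, 13.9 and 23.8 CPM against 46.4, 77.3, 70.9 and 38.9 CPM. Neither reached the 2-fold gap, and both were chosen after their values were seen. The coreceptor Gas1 overlapped, at 96.3 to 111 CPM in the low and 86.1 to 158 CPM in the high libraries. The transducer Smo barely differed, at 97.5 to 109 CPM against 114 to 145 CPM.

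Most Wnt, BMP and FGF genes overlapped between the classes. Of 30 Wnt pathway genes, 10 were higher without overlap, 1 of them separated, and 1 was lower. Over all genes, 15.1% were higher and 13.7% lower without overlap. The list median was 0.26. Wif1, a secreted Wnt inhibitor made in the dermal papilla, was the separated one, at 3.60, 3.73 and 7.61 CPM against 23.6, 17.4, 39.6 and 19.3 CPM. Wls, which exports Wnt ligands, was flat at 196 to 233 CPM against 165 to 225 CPM, and the receptor Kremen1 stood at 124 to 165 CPM against 132 to 180 CPM. The single gene lower without overlap was Dkk2, a Wnt antagonist chosen after its values were seen, at 30.9, 21.2 and 21.3 CPM against 14.4, 12.1, 12.7 and 15.0 CPM.

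Of 20 BMP pathway genes, 6 were higher and 2 lower (Nog and Fst) without overlap, against 15.1% and 13.7% of all genes. The list median was 0.04. The separated gene was the ligand Bmp8a, at 0.300, 0.495 and 1.46 CPM against 10.1, 4.18, 17.7 and 7.93 CPM. The receptor genes Bmpr1a (219 to 254 CPM against 215 to 246 CPM) and Bmpr2 (638 to 747 CPM against 590 to 685 CPM) overlapped. Nog, an antagonist of BMPs, was 1 of the 2 lower genes, at 4.13, 3.76 and 4.35 CPM against 3.02, 2.84, 1.01 and 1.67 CPM; it was chosen after its values were seen. List members named only to spell out a small count, without values, were likewise chosen after their values were seen.

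Among 17 FGF and EGF family signals, 4 were higher (Edn2, Fgf22, Tgfa and Inhba) and 1 lower (Egf) without overlap. The shares over all genes were 15.1% and 13.7%, and the list median was -0.04. Edn2, an endothelin ligand placed in this list, was separated at 0.188, 0.363 and 0.412 CPM against 2.27, 1.66, 2.44 and 2.28 CPM, a low level in every library. Fgf5, the ligand that ends the growth phase, was at 1.28, 1.62 and 0.600 CPM in the low class and at 8.99, 6.61 and 7.84 CPM in sham 2, FLASH 3 and FLASH 4, but sham 3 was at 1.18 CPM within the low range. Fgf18, a signal of the resting follicle, was at 6.46, 8.84 and 10.4 CPM against 5.20, 7.60, 0.791 and 1.49 CPM, so sham 2 and sham 3 lay near the low class and FLASH 3 and FLASH 4 below it. Fgf5 and Fgf18 were chosen after their values were seen. Receptor genes Egfr (356 to 434 CPM against 383 to 466 CPM) and Fgfr3 (128 to 191 CPM against 136 to 239 CPM) overlapped.

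Dermal papilla genes were higher in the high class for 7 of 22 members without overlap and lower for 1, at a median of 0.39. The shares over all genes were 15.1% and 13.7%. Corin, a serine protease of the papilla that also affects coat colour, was the separated member, at 0.864, 2.11 and 2.36 CPM against 10.9, 5.68, 11.6 and 7.93 CPM. Vcan, a proteoglycan of the growing papilla, had a gap of 0.14 on the log2 scale, at 60.7, 48.2 and 69.5 CPM against 76.3, 109, 116 and 166 CPM. Prlr, the prolactin receptor, was the lower one, at 142, 159 and 119 CPM against 99.3, 96.7, 65.1 and 72.3 CPM.

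No follicle stem cell gene of 24 was separated, at a list median of -0.05. Without overlap, 2 were higher (Cdh3 and Tbx1) and 4 lower (Cd34, Nfib, Krt15 and Krt24), against 15.1% and 13.7% of all genes. Krt15, a keratin of the bulge and basal layer, measured 803, 981 and 903 CPM in the low libraries. It was close to that in sham 2 (736 CPM) and sham 3 (788 CPM) and lower in FLASH 3 (221 CPM) and FLASH 4 (166 CPM). Col17a1, a hemidesmosomal collagen, had the same split within the high class, with 1572 to 2095 CPM in the low libraries, 1539 and 2112 in sham 2 and sham 3, and 754 and 1153 in FLASH 3 and FLASH 4.

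Of 24 pigment genes tested, 14 were higher without overlap, 10 of them separated, and none was lower, at a median of 1.62. Among all genes, 15.1% were higher and 13.7% lower without overlap, and 1.25% were separated and higher. Tyrp1, a melanosomal enzyme of eumelanin synthesis, measured 1.46, 1.88 and 5.96 CPM in sham 1, FLASH 1 and FLASH 2 and 67.4, 25, 83.0 and 37.8 CPM in sham 2, sham 3, FLASH 3 and FLASH 4, so the nearest libraries differed 4.16-fold. Tyr, the rate-limiting enzyme of melanin synthesis, was at 2.33, 2.64 and 3.60 CPM against 25.7, 13.4, 31.7 and 14.1 CPM. Dct, which acts between them, was at 13.4, 13 and 21.6 CPM against 88.7, 60.9, 101 and 51.9 CPM.

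Further separated pigment genes encode melanosome and melanocyte proteins. The transporter Slc45a2 was at 0.188, 0.231 and 0.487 CPM against 4.01, 3.38, 7.34 and 2.22 CPM. The channel gene Trpm1 was at 3.23, 4.98 and 7.61 CPM against 52.5, 25.6, 54.4 and 25.3 CPM, and Mlana at 1.13, 1.45 and 0.900 CPM against 6.81, 4.09, 10.8 and 3.86 CPM. In this list sham 3 was the lowest high library for 3 of the 10 separated genes. Mitf, the master regulator of the melanocyte lineage, overlapped, at 82.2, 54.3 and 59.0 CPM against 73.2, 43.0, 56.5 and 59.7 CPM. The melanosome transport gene Myo5a lay just apart, at 122 to 147 CPM against 157 to 280 CPM with a gap of 0.09.

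Upstream stretches of the 3 enzymes are shown because the genes lay together in the high class and share CATGTG, a form of the E-box that MITF is known to bind, searched on both strands and once found in Dct as its complement CACATG. Capitals mark it, and the stretches lie at chr7:87493513-87493553 (minus strand), chr4:80834147-80834192 (plus strand) and chr14:118052371-118052496 (minus strand) of GRCm38.p6 in RefSeq, 5′ to 3′ along each gene.
Tyr: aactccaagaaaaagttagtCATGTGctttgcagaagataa
Tyrp1: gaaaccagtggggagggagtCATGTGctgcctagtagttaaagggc
Dct: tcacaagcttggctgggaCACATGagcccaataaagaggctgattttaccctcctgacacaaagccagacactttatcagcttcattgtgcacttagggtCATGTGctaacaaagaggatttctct
The letters begin 21 bases before the annotated start of Tyr, 46 before that of Tyrp1, and 232 and 150 before that of Dct. Of the pigment list, 18 of 25 genes were matched to RefSeq and 8 of these (44.4%) held the letters within the 250 bases before the start, against 13.8% of all 27025 genes. Among the 6 matched of the 10 separated pigment genes, 5 held them (Tyr, Tyrp1, Dct, Slc24a5 and Trpm1). Mitf itself did not differ between the classes, as given above.

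Of 30 cell division genes, 29 lay higher without overlap and 3 of these were separated, at a median of 1.12. Shares over all genes were 15.1% and 1.25%. Tyms alone overlapped (51.7 to 73.4 CPM against 62.5 to 63.8 CPM). Mki67 (Ki-67, a nuclear protein of dividing cells) measured 110, 110 and 136 CPM against 304, 279, 416 and 294 CPM. Top2a, a topoisomerase of dividing cells, measured 55.9, 70.7 and 84.2 CPM against 151, 161, 223 and 165 CPM. Ccnb2, a mitotic cyclin, was at 5.11, 5.04 and 6.52 CPM against 15.5, 13.6, 23.9 and 18.5 CPM. The mean log2 CPM of the list was 3.93 to 4.33 in the low and 5.05 to 5.53 in the high libraries, with sham 3 (5.07) level with sham 2 (5.05).

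**Figure D4:**
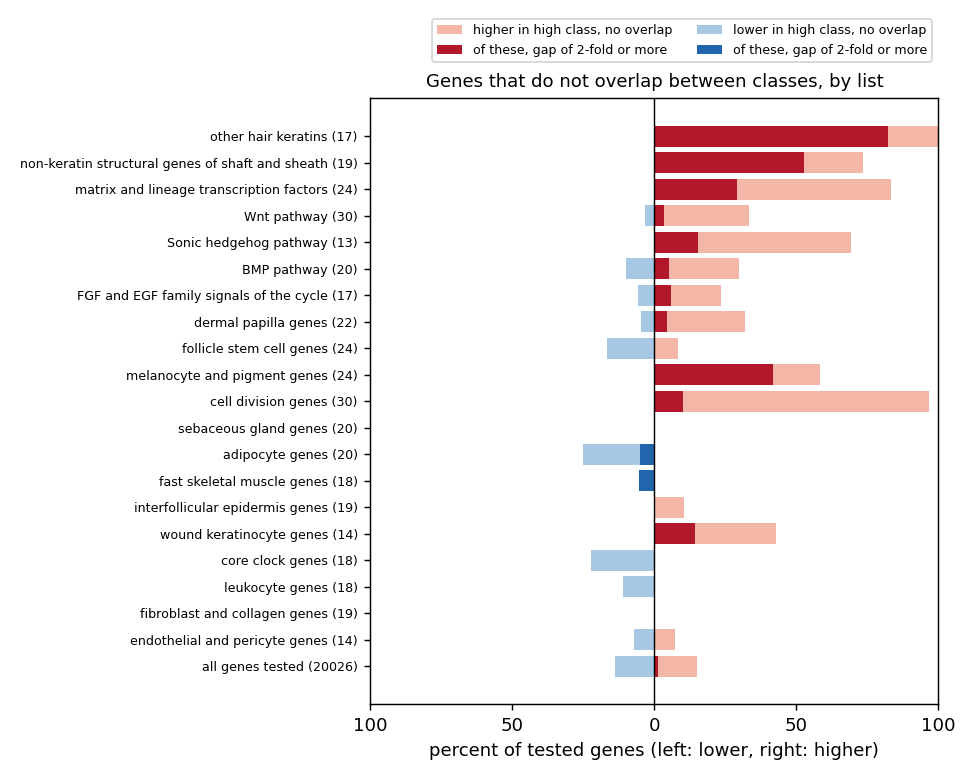
Percent of tested genes of each list that lay without overlap between the classes (pale bars, right for higher and left for lower in the high class) and, within these, the percent separated by at least 2-fold (dark bars); the number tested stands after each name and the last bar is all 20026 genes. Hair keratins, structural genes, matrix factors, pigment and cell division genes extend far to the right, while the sebaceous and fibroblast lists have no bar.

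Skeletal muscle RNA was highest in 2 of the 3 low libraries. The 18 fast skeletal muscle genes took 9.57% of the counts in sham 1 and 10.2% in FLASH 2, but 0.859% in FLASH 1. In the high class they took 0.0397% in sham 2, 0.937% in sham 3, 1.01% in FLASH 3 and 0.198% in FLASH 4, and in the muscle libraries of the same experiment 16.1% to 19.5%. No gene of the list was at 0 in any classed library, and Myh4, the fast myosin IIb chain, ranged from 3.57 CPM in sham 2 to 12152 CPM in sham 1. For the summed share of these 18 genes FLASH 1 lay within the range of the high class, but single muscle genes, given below, were more than 2-fold higher in it than in any high library.

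Without the 2 muscle-rich libraries, so with FLASH 1 as the only low library, 539 of 20026 genes were separated and higher and 115 lower. With all 7 libraries the counts were 250 and 24. The counts by list add higher and lower genes together. They were then 16 of 17 other hair keratins, 11 of 19 structural genes, 9 of 24 transcription factors and 12 of 24 pigment genes. For Sonic hedgehog 4 of 13 were separated, and for cell division 14 of 30. The counts were 3 of 30 Wnt, 2 of 20 BMP and 3 of 22 dermal papilla genes, and 7 of 20 adipocyte genes in place of 1. For Lef1 the gap was 2.73 on the log2 scale (1.59 with all 7 libraries), and for Tyrp1 it was 3.69 (2.06 with all 7). With all 7 libraries and without TMM scaling, 356 genes were separated and higher and 21 lower.

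Genes lower in the high class were few. Of 16 protein-coding genes among the 24, 15 (93.8%) were higher in all 10 muscle libraries than in any high skin library (CPM without TMM scaling), against 743 of all 17684 protein-coding genes tested (4.2%). Myh2, a fast myosin IIa chain, was at 573, 104 and 619 CPM in the low and 0.332, 28.3, 11.6 and 25.8 CPM in the high libraries, and Mb (myoglobin) at 320, 61.8 and 586 CPM against 2.10, 27.7, 28.5 and 16.5 CPM. Tmem182, a muscle membrane protein, was at 147, 25.8 and 140 CPM against 5.01, 10.6, 10.2 and 8.35 CPM. The fatty acid carrier Fabp3 was at 79.3, 12 and 64.7 CPM against 0.581, 5.39, 3.8 and 2.98 CPM. Aldh1a1, which makes retinoic acid, was at 120, 42.0 and 106 CPM against 15.1, 19.4, 13 and 11.9 CPM. Kcna5, Vtn, Eepd1 and Agbl1 were the other named genes of this kind, with nearest libraries 2.21-fold to 3.55-fold apart.

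Adipocyte genes were also higher in the low class. All 20 had a lower median in the high class, as did 11190 of all 20026 genes. Without overlap were 5 of the 20 (Car3, Lpl, Pnpla2, Slc2a4 and Thrsp), against 13.7% of all genes lower without overlap. Just 1 was separated, against 0.12% of all genes separated and lower. The list median was -1.77. The list took 0.388%, 0.290% and 0.188% of the counts in sham 1, FLASH 1 and FLASH 2, and 0.134%, 0.0654%, 0.0555% and 0.142% in sham 2, sham 3, FLASH 3 and FLASH 4. Car3, a carbonic anhydrase of fat and slow muscle, was the separated one, at 1341, 642 and 1051 CPM against 249, 115, 82.5 and 302 CPM. In the muscle libraries Car3 was at 332 to 856 CPM, against at most 314 CPM in the high skin libraries (CPM without TMM scaling). Lpl, lipoprotein lipase, was at 1182, 595 and 341 CPM against 273, 89.0, 112 and 299 CPM. Cfd (adipsin) overlapped, because FLASH 2 (64.7 CPM) lay below sham 2 (77.9 CPM) and FLASH 4 (132 CPM). The part of muscle and fat in the other differences between the classes was not tested beyond the counts without sham 1 and FLASH 2.

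**Figure D5:**
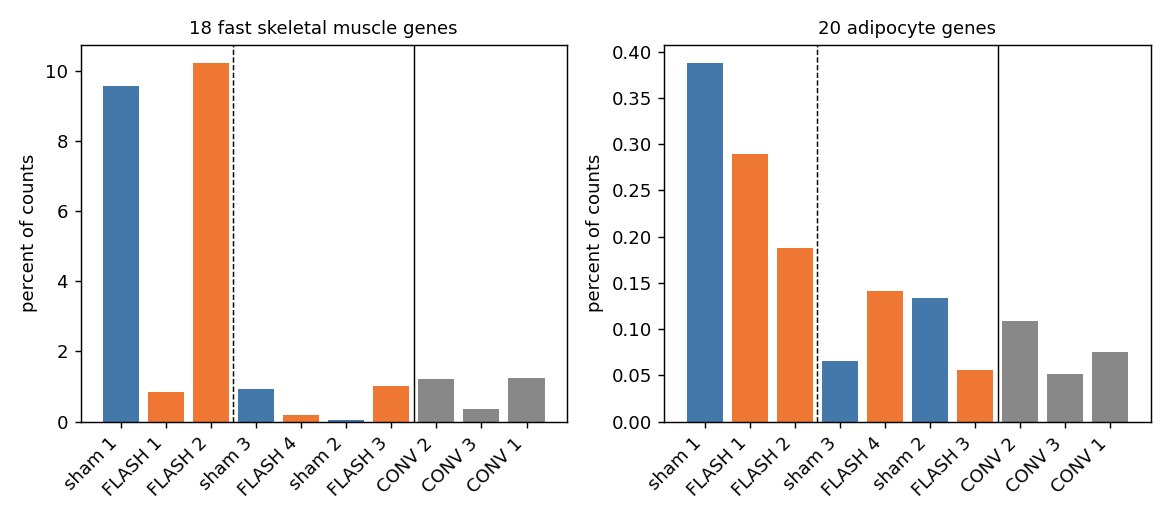
Percent of counts in 18 fast skeletal muscle genes (left) and 20 adipocyte genes (right) by skin library, ordered as in the keratin plot, with blue for sham, orange for FLASH and grey for CONV bars. Sham 1 and FLASH 2 stand out on the left at 9.57% and 10.2%, and all 3 low libraries exceed the 4 high ones on the right.

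Wound keratinocyte genes separated the high libraries from each other. Of 14 genes, 6 were higher without overlap and 2 separated (Sprr1b and Sprr2h, of the cornified envelope), at a median of 2.45. For all genes these shares were 15.1% and 1.25%. Krt16, a keratin of injured epidermis, measured 5.89, 11.1 and 8.40 CPM in the low libraries, 14.3 and 15.8 CPM in sham 2 and sham 3, 193 CPM in FLASH 3 and 2542 CPM in FLASH 4. The mean log2 CPM of the list was -0.20 to 0.12 in the low class, 0.90 in both sham libraries of the high class, 3.91 in FLASH 3 and 6.69 in FLASH 4, against 6.54 to 8.13 in CONV. The part of wound genes in the other differences was not tested beyond the counts that follow. Without FLASH 4 and both muscle-rich libraries, 568 genes were separated and higher and 195 lower.

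Other skin compartments mostly overlapped, as did 14263 of all 20026 genes. None of 20 sebaceous gland genes (median -0.01) and none of 19 fibroblast and collagen genes (median 0.06) lay without overlap. Scd1, a sebaceous and adipose desaturase, ranged over 2003 to 5646 CPM in the low and 1305 to 4282 CPM in the high class. Col1a1 ranged over 3191 to 4610 and 3069 to 4832 CPM. Of 19 genes of the interfollicular epidermis 2 were higher without overlap (Ivl and Casp14, list median 0.27) and none was lower. The shares of all genes were 15.1% and 13.7%. Dsp, a desmosomal protein, stood at 3146 to 4065 CPM against 3356 to 4247 CPM, present in all 7 libraries.

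Of 18 core clock genes 4 were lower without overlap (list median -0.65), among them Nr1d2, a clock repressor, at 282, 177 and 208 CPM against 149, 127, 82.6 and 78.3 CPM, and Tef at 264, 191 and 238 CPM against 173, 152, 87.1 and 73.0 CPM. No time of day was stated for the collection. Of 18 leukocyte genes 2 were lower without overlap (Cd3e and Trdc, list median -0.32), and of 14 endothelial and pericyte genes 1 was higher (Thbs1) and 1 lower (Vegfa, list median -0.52). Over all genes, 15.1% were higher and 13.7% lower without overlap. Ptprc, the pan-leukocyte CD45 gene, measured 82.8 to 114 CPM against 56.7 to 90.0 CPM. Pecam1, an endothelial adhesion gene, measured 65.3 to 93.1 CPM against 35.9 to 107 CPM.

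Outside the lists, and leaving out genes with Krt or Krtap symbols, 122 protein-coding genes with a mean of at least 1 CPM were separated and higher and 11 were lower. The choice was by symbol, so the 122 include genes that lie among Krtap genes, such as Gm11562 and Gm11567. The 8 with the widest gap among the higher ones were Gm10228, Gm11563, Gm11938, Gm11569, 1110025L11Rik, Gm11595, Gm2696 and Tchhl1. Tchhl1, a relative of trichohyalin next to it on chromosome 3, was at 0, 0.231 and 0.900 CPM against 136, 5.11, 129 and 113 CPM. The gene Gm10228 on chromosome 16 was at 0 in sham 1 and FLASH 1 and at 0.0375 CPM in FLASH 2, against 75.2, 1.72, 105 and 52.9 CPM. The 7 genes other than Tchhl1 lie among Krtap genes on chromosomes 10, 11 and 16 and were left in by symbol only, so they are not shown to be outside that family, and reads shared with close copies make their values uncertain.

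The CONV libraries, which the rule did not use, ranked CONV 1 (9.20), CONV 3 (7.85) and CONV 2 (5.13) by the mean log2 CPM of the 7 keratins. Over all genes, 3410 (17%) had this same order. Of the 250 genes separated and higher in the high class, 185 (74%) had it, made up of 64 of 66 hair keratin and Krtap genes and 121 of 184 others (65.8%). The 7 keratins of the rule set the order and are among these genes, and without them 178 of 243 (73.3%) had it, 57 of 59 hair keratin and Krtap genes included. The split was by symbol, so the 184 others include genes that lie among Krtap genes, such as Gm10228 and Gm11563. Such genes are not shown to be outside that family. Of the 24 lower genes, 6 (25%) had the reverse order, against 16.9% of all genes. This is an order of 3 libraries and is given as a description.

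CONV 2 and sham 3 were close in the mean log2 CPM of the 7 keratins (5.13 and 5.38), but summed hair keratin TPM was 489 in CONV 2, next to the 435 of FLASH 2, and 1263 in sham 3. Lef1 was at 19.7 CPM in CONV 2, next to the 16.2 to 35.9 CPM of the low class, and at 108 CPM in sham 3. Msx2 was at 7.35 CPM in CONV 2 and 26.6 in sham 3, Hhip at 2.89 and 23.3, and Tyrp1 at 11.1 and 25 CPM. Mki67 was closer, at 202 and 279 CPM. CONV 1 lay within the range of the high class for Lef1 (131 CPM), Tyrp1 (49.7 CPM) and Mki67 (327 CPM), and CONV 3 was below it for all of these (52.7, 15.3 and 214 CPM). Each CONV value is from 1 library, and the wound genes given above were high in all 3.

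The labelled comparison of FLASH with sham skin cuts across the classes, since 1 of 3 sham and 2 of 4 FLASH libraries were low. By library name, 2 sham libraries and 1 FLASH library would be low. With edgeR's quasi-likelihood test and Benjamini-Hochberg adjustment, 0 of 20026 genes (0%) passed an adjusted p of 0.05, the list members included, and 132 had an unadjusted p under 0.05. DESeq2 called 4 genes, of which the wound keratinocyte genes Krt6b and Sprr2d and the gene Gm13304 were higher in FLASH and Gm8603 was lower. Lef1 differed by -0.01 ± 1.06 (log2 FLASH minus sham ± SE, n = 3 and 4, edgeR adjusted p = 1.00), Tyrp1 by 0.04 ± 1.32 and Mki67 by 0.05 ± 0.50. The standard errors of Lef1 and Tyrp1 exceed a 2-fold change, so a difference of that size was not detectable in these libraries. The signs of these estimates changed when single libraries were left out. With the class as an added term, 0 genes passed again and 1774 had an unadjusted p under 0.05, although the class was itself chosen from these values.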

How the data were processed

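Each library was deposited as 1 table of 116116 mouse transcripts with an expected (estimated) count and a TPM value, computed by the authors with kallisto 0.5.0 on mm10, per the submitters' processing notes. The deposited estimated counts were not normalized, and the deposited TPM values correct for transcript length and library size. No release of the annotation was stated. Libraries were ribosome-depleted, stranded total RNA, per the labels' protocols.

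Counts were summed per gene with GENCODE M21 (GRCm38) by transcript identifier without version (98.5% matched, and 1.04% to 1.85% of a classed library's counts were unmatched and left out) and rounded. The 7 classed libraries held 28598976 to 33250762 counts. Values far below 1 CPM rest on few counts. edgeR 4.0.16 in R 4.3.3 gave log2 CPM with TMM scaling and a prior count of 2, after filterByExpr by labelled group over the 10 skin libraries. CPM printed per library is TMM-scaled without a prior count, and class medians are of log2 CPM. A gene was separated with a gap of at least 1 (log2). FLASH and sham were compared with edgeR's quasi-likelihood test, 3 skin groups fitted together without a replicate block, and again with DESeq2 1.42.0. The scripts were tested on simulated data. Other per-sample columns numbered 0.

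Members and the 21 gene lists (411 genes, written from general knowledge) were chosen with earlier results of these data known. Per list, up to 6 separated genes with the widest gap and up to 3 abundant ones not separated were eligible for naming, and outside the lists up to 8 protein-coding genes per direction with a mean of at least 1 CPM, leaving out keratin and Krtap genes. Alternatives covered scaling, the filter, the prior count, the gap, the class rule, single libraries, file names and a replicate block. Some list members are not reported here.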

Additional observations from a re-analysis of the deposited data

Results flagged for a closer look

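The share of counts in 18 fast skeletal muscle genes stood apart in 1 FLASH skin library, at 10.2% in FLASH 2 against 0.198% to 1.01% in the other 3. It was the 1 of 42 groups of values checked for a sample far from the others that passed Dixon's critical value for 4 samples, and chance flags about 1 in 20 such groups.

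The 7 hair keratins of the rule also gave counts in muscle libraries, where the 3 sham muscle libraries held 0.0849 to 0.274 CPM. No comparison used these hair keratin counts of muscle. Muscle FLASH 4 held 29.5 CPM (331 counts, exact Poisson 95% interval 26.4 to 32.8 CPM), muscle CONV 3 held 4.96 CPM (58 counts, 3.76 to 6.41 CPM) and muscle FLASH 2 held 0.670 CPM (8 counts, 0.289 to 1.32 CPM). The intervals cover counting error only.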

How the results depend on the processing

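The main counts were 250 genes separated and higher and 24 lower in the high class. They moved by over 1.5 times without the 2 muscle-rich libraries (539 and 115), without the 2 libraries of disagreeing file name (576 and 633) and with any gap above 0 (3020 and 2743). Leaving out 1 library at a time gave 252 to 509 higher and 26 to 577 lower genes, the 577 without FLASH 1. There, and without the libraries of disagreeing file name, the muscle-rich sham 1 and FLASH 2 were the whole low class. Among alternatives chosen after seeing the data, splitting off the 2 lowest libraries gave 150 higher, splitting off the 4 lowest gave 6 lower, and leaving out FLASH 4 with both muscle-rich libraries gave 568 and 195. Fewer libraries have to clear the gap in the settings that leave some out. Causes beyond that, muscle RNA included, were not tested in any setting. FLASH against sham gave 0 genes in every edgeR setting, with 51 to 1774 at an unadjusted p under 0.05, and 4 with DESeq2. The replicate block gave 0 genes (51 unadjusted) and log2 differences of -0.67 for Tyrp1 and -0.18 for Mki67. Same-numbered sham and FLASH libraries correlated at 0.517, -0.711 and 0.210 for replicates 1, 2 and 3. Replicates 1 and 3 join libraries of the same class and replicate 2 joins libraries of different classes. These values therefore cannot show whether equal numbers mark a pair.

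None of the 4 single-gene FLASH minus sham differences passed the test. Their sign changed for Lef1 with the 7 libraries only (0.011), DESeq2 size factors and DESeq2 (0.031 each), and without the disagreeing libraries (0.34), where Shh was 0.65. With the class as a term Lef1 was 0.43 and Shh 0.30, and by library name 0.73 and 1.19. Without the muscle-rich libraries Tyrp1 was -0.16 and Mki67 -0.082. Leaving out 1 library at a time gave -0.97 to 0.82 for Lef1, -0.92 to 0.32 for Shh, -1.04 to 1.28 for Tyrp1 and -0.36 to 0.30 for Mki67.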
